A study of Mus musculus with 20 samples.

Results

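Liver messenger RNA of Sirt2-/- mice that were not exposed to cold was compared with that of wild-type mice kept in the same way. The 5 libraries labelled as Sirt2 knockout, control (replicates 11 to 15, here the Sirt2-/- group) and the 5 labelled as WT, control (replicates 1 to 5, here the Control group) were taken by these labels, 10 of the 20 libraries of the series. The other 10 came from wild-type and knockout mice exposed to intermittent cold at 4 °C for 3 h per day over 3 weeks (the CE and Sirt2-/-/CE groups) and serve here as a second set of mice for the genotype and in the common fit that estimates the spread. All mice were of the C57BL/6 strain and were 5 weeks old when the experiment began. The knockout is a whole-body one, made by injecting Cas9 ribonucleoprotein into fertilized eggs. Every cell type of the liver and every other organ is affected, so a change in liver RNA can start outside the liver. The labels give neither sex, litter, hour of dissection, fasting state nor sequencing batch. The study bought C57BL/6 mice and made the knockouts on that background, and it is not stated that the Control mice were littermates of the Sirt2-/- mice.

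Sirt2 is a deacetylase that uses NAD as a co-substrate and resides mostly in the cytosol, where α-tubulin and several metabolic enzymes are among its known substrates. In liver it has been tied to lipid synthesis, glucose production and the handling of oxidative stress, which hepatocytes carry out in step with feeding and with the time of day. Sirt2 removes acetyl groups from proteins, so transcript levels report on what follows its loss and not on its enzymatic targets themselves.

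The stretch that the knockout was designed to remove is shown first. Exons 5 to 7 of transcript Sirt2-201 (GENCODE vM21, GRCm38, forward strand) lie at chr7:28776858-28776899, chr7:28776996-28777102 and chr7:28777191-28777247, and every base of them is coding. Joined 5′ to 3′ with exon 6 in capitals, they read as follows.
Sirt2 exons 5 to 7: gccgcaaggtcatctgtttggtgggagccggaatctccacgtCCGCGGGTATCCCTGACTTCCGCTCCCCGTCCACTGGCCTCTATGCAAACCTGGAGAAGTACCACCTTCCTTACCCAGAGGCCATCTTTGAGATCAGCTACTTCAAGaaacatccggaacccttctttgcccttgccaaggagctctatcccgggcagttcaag

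Values are given in CPM, the counts of a gene scaled to a common library size after TMM normalisation, and are listed in the order of replicates 1 to 5 for Control and 11 to 15 for Sirt2-/-. Sirt2 had 42.4, 41.6, 44.5, 41.3 and 41.5 CPM in the Control mice and 17.3, 21.3, 26.6, 27.5 and 16.9 CPM in the Sirt2-/- mice. The groups did not overlap, and the log2 fold change was -0.94 (SE 0.15, edgeR adjusted p = 0.0145, lower in 5 of 5 mice). The mean of the Sirt2-/- mice was 51.9% of that of Control. The deposited value is 1 count per gene, so it shows a lower level in each library labelled as knockout but not the loss of exons 5 to 7 or of both alleles. By immunoblot, which is not part of these data, the study reports that Sirt2 protein was absent from Sirt2-/- livers. Of the other sirtuins, Sirt3, the main mitochondrial deacetylase, differed by -0.48 on the log2 scale (edgeR adjusted p = 0.19) with overlapping groups, and of the 7 sirtuins only Sirt2 passed the test.

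Total counts ran from 44222098 to 53917339 per library in Control and from 36004846 to 42142304 in Sirt2-/-, so the Control libraries were deeper without exception. Hepatocyte markers summed to 131184 to 199857 CPM in Control and 99007 to 157046 CPM in Sirt2-/-, and these ranges overlapped. So did those of Kupffer cell markers (209 to 584 and 363 to 638 CPM), endothelial markers (134 to 472 and 206 to 540 CPM), stellate cell markers (177 to 404 and 166 to 450 CPM) and lymphocyte and neutrophil markers (10.7 to 27.8 and 15.1 to 23.2 CPM). Cholangiocyte markers summed to 38.2 to 77.9 and 29.5 to 44.4 CPM and erythroid markers to 281 to 554 and 127 to 508 CPM. Of the defining markers of adipocytes and skeletal muscle, 3 of 6 and 2 of 7 were at 0 in all 10 libraries, and 2 of 9 markers of exocrine pancreas passed the filter, with a sum of 5.53 to 16.9 and 5.38 to 14 CPM. In bulk liver, fewer cells of a type and less RNA per cell cannot be told apart. Sirt2-/- replicates 14 and 15 stood apart from the other mice of this comparison in the circadian clock. The clock score, the mean log2 level of evening genes minus that of morning genes, was 3.15, 2.66, 3.36, 1.33 and 3.13 in Control and 1.76, 0.58, 2.17, -5.72 and -6.48 in Sirt2-/-. Low scores were not limited to this group. In the cold-exposed mice, CE replicate 9 had -4.52 and Sirt2-/-/CE replicate 19 had -4.69, the others -0.81 to 2.42. Without Sirt2-/- replicates 14 and 15 none of the 66 called genes named here passed the test (edgeR adjusted p from 0.126 to 0.626). The fold change moved by less than 1.5 times in 60 of them and by more in 6, whose values without these mice stand beside them. Control replicate 3 stood apart in acute-phase genes. Saa2, an acute-phase protein, had 793 CPM there and 5.31 to 15.2 CPM in the other Control mice. Its mean log2 level of male-type liver genes was -2.21 and that of the others -0.13 to 1.18, and its level of female-type genes was 1.915 and that of the others -0.966 to -0.306. Without it 17 genes were called.

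Of 15616 genes tested, 139 (0.89%) were called at an adjusted p under 0.05. In Sirt2-/- 60 of them were higher (0.384% of the genes tested) and 79 lower (0.506%), with median log2 fold changes of 1.02 and -1.18. An absolute log2 fold change of at least 1 was found in 32 and 52 of them. At an unadjusted p under 0.05 there were 2329 genes (14.9%), 1271 of them higher and 1058 lower. No Sirt2-/- mouse overlapped the Control mice in 564 genes (3.61%), 226 higher and 338 lower, and 107 of the 139 called genes were among them. In a fit of only the Control and Sirt2-/- libraries 29 genes were called, 21 of them among the 139, so most of the 139 were not called without the cold-exposed mice in the fit. The balance between the directions depended on the scaling. With library size only, 419 genes were called, 330 of them higher, and 716 genes did not overlap, 546 of them higher. The median log2 fold change of all genes then moved from 0.02 to 0.16. In the deposited FPKM values, 732 genes did not overlap, 564 of them higher. The count of called genes was 0 without Sirt2-/- replicates 14 and 15. In that fit 59 of the 60 higher and 79 of the 79 lower genes still had an unadjusted p under 0.05 and all 139 kept their direction, but the remaining 8 mice had also served to choose the genes, so this count is a description. It was 5 without Control replicate 2 or Sirt2-/- replicate 14 and 387 without Sirt2-/- replicate 13. The 4 genes called with any 1 of the 10 mice left out were Sirt2, Paox, Ropn1l and 1810008I18Rik, of which Paox and Ropn1l were chosen after their values were seen.

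**Figure D1:**
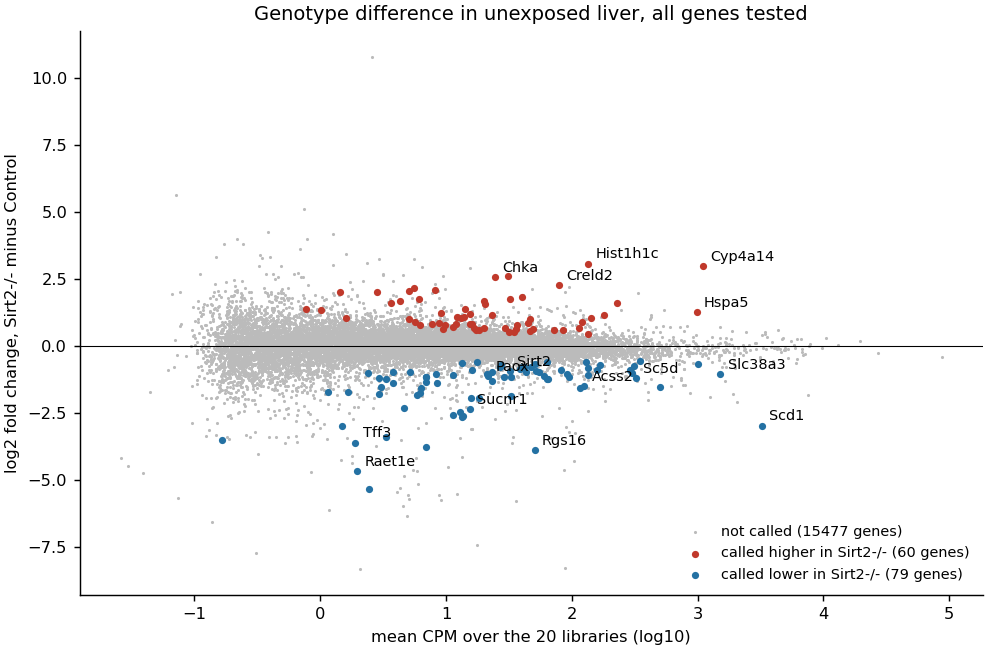
Each point is 1 of the 15616 genes tested, placed by its mean CPM over the 20 libraries (x axis, log10) and by its log2 fold change between Sirt2-/- and Control (y axis); red and blue points are the 60 and 79 genes called higher and lower. Scd1 (-2.99) and Cyp4a14 (2.97) are abundant called genes far from 0, while Raet1e and Tff3 lie lower at low CPM.

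Some genes of fatty acid synthesis fell in Sirt2-/-. All 22 genes of the list had a log2 fold change below 0, with a median of -0.72 against 0.02 over all genes tested, and 3 fell at an adjusted p under 0.05. Scd1, which places the double bond in stearic and palmitic acid, had 6198, 6543, 10069, 2555 and 3518 CPM in Control and 1468, 795, 637, 119 and 618 CPM in Sirt2-/-. The lowest Control mouse lay above the highest Sirt2-/- mouse, and 12.6% of the Control mean remained (log2 fold change -2.99, SE 0.58, edgeR adjusted p = 0.0311). Acss2, which makes cytosolic acetyl-CoA from acetate, had 175, 186, 167, 187 and 214 CPM in Control and 80.3, 65.9, 91.2, 42 and 46.2 CPM in Sirt2-/- (log2 fold change -1.51, SE 0.28, edgeR adjusted p = 0.0271). Slc25a1, the carrier that exports citrate from mitochondria, had 203, 187, 187, 204 and 250 CPM in Control and 147, 136, 137, 120 and 92 CPM in Sirt2-/- (log2 fold change -0.70, SE 0.14, edgeR adjusted p = 0.0352). Neither gene overlapped between the groups. The synthase Fasn and the acetyl-CoA carboxylase Acacb, both named after their values were seen, had log2 fold changes of -1.41 and -1.43 and did not pass the test (edgeR adjusted p = 0.207 and 0.0518). The liver pyruvate kinase gene Pklr, which supplies the pathway with pyruvate, had 144 to 404 CPM in Control and 85.6 to 137 CPM in Sirt2-/-, without overlap, and did not pass either (log2 fold change -1.25, edgeR adjusted p = 0.0684).

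The mean level of the fatty acid list in each mouse, centred on each gene, was 0.60, 0.64, 0.41, 0.41 and 0.21 in Control and -0.21, -0.20, -0.78, -1.32 and -0.55 in Sirt2-/- on the log2 scale. The groups did not overlap, and Sirt2-/- replicates 11 to 13, with clock scores of 0.58 to 2.17, were all below Control. Without replicates 14 and 15 the median of the list was -0.66, and Scd1, Acss2 and Slc25a1 had log2 fold changes of -2.58, -1.23 and -0.55 with edgeR adjusted p of 0.254, 0.256 and 0.268.

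Most genes of cholesterol synthesis had values below 0, unevenly among the mice. Of 23 genes, 22 had a log2 fold change below 0 (median -0.997) and 2 fell at an adjusted p under 0.05. Sc5d, which places a double bond in the sterol ring, had 458, 507, 403, 429 and 463 CPM in Control and 237, 241, 227, 114 and 156 CPM in Sirt2-/- (log2 fold change -1.21, SE 0.23, edgeR adjusted p = 0.0307). Tm7sf2, a sterol reductase, had 102, 118, 85.8, 124 and 191 CPM in Control and 83.3, 70.5, 73.3, 41 and 29.5 CPM in Sirt2-/- (log2 fold change -1.06, SE 0.25, edgeR adjusted p = 0.0462). The groups were separate in both genes, by a narrow gap in Tm7sf2, which shares 12.1% of its exon bases with Vps51. The enzymes with the largest fitted differences of the list, Nsdhl and Fdps, had log2 fold changes of -1.76 and -1.63 but overlapping groups (edgeR adjusted p = 0.0936 and 0.105). They were -1.16 and -1.10 without replicates 14 and 15, and both were chosen after their values were seen. The mean level of the list was 0.42, 0.16, -0.44, 0.43 and 0.98 in Control and 0.31, 0.08, -0.80, -1.98 and -1.42 in Sirt2-/-, so replicates 11 and 12 lay among the Control mice and replicates 14 and 15 far below them. Without replicates 14 and 15 the median of the list was -0.45, and Sc5d and Tm7sf2 had log2 fold changes of -0.94 and -0.71 (edgeR adjusted p = 0.256 and 0.306). With the clock score as a covariate the median was -0.57, against -0.64 for fatty acid synthesis.

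Other called genes of lipid handling stood on no list and were chosen after their values were seen. Dbi, the acyl-CoA binding protein, had 354 to 430 CPM in Control and 118 to 284 CPM in Sirt2-/- (log2 fold change -1.01, edgeR adjusted p = 0.039). Fdx1, which passes electrons to mitochondrial cytochromes P450, had 76.1 to 105 CPM in Control and 20.1 to 48.2 CPM in Sirt2-/- (log2 fold change -1.26, edgeR adjusted p = 0.0219). Rdh11, a reductase of retinal, fell without overlap (log2 fold change -1.16, edgeR adjusted p = 0.034). Soat2, which esterifies cholesterol, and Lpcat3, which places polyunsaturated chains in phospholipids, also fell, with log2 fold changes of -1.18 and -0.91 (edgeR adjusted p = 0.0405 and 0.034), although 1 or more mice overlapped. Chka, the choline kinase of phosphatidylcholine synthesis, rose unevenly. It had 5.58, 5.17, 5.23, 13.9 and 6 CPM in Control and 8.22, 21.1, 8.88, 78.6 and 94.3 CPM in Sirt2-/- (log2 fold change 2.56, SE 0.58, edgeR adjusted p = 0.0407). Leaving out replicates 14 and 15 moved its log2 fold change to 0.83 (edgeR adjusted p = 0.626).

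Several chaperones of the endoplasmic reticulum (ER) were higher in Sirt2-/-. The ER folds secreted proteins such as the plasma proteins of the hepatocyte, and an excess of unfolded protein is known to raise a common set of chaperones. Of 27 genes of the list, 20 had a log2 fold change above 0 (median 0.53, against 0.02 over all genes tested), and 5 rose at an adjusted p under 0.05. Hspa5, the main ER chaperone BiP, had 575, 654, 425, 715 and 538 CPM in Control and 1840, 1555, 468, 1213 and 1861 CPM in Sirt2-/- (log2 fold change 1.25, SE 0.28, edgeR adjusted p = 0.0407). Its co-chaperone Hyou1 had 119, 137, 44.8, 169 and 99 CPM in Control and 480, 451, 105, 258 and 427 CPM in Sirt2-/- (log2 fold change 1.60, SE 0.35, edgeR adjusted p = 0.0407). Creld2, a disulfide isomerase, had 25.7, 32.2, 13.9, 42.9 and 24 CPM in Control and 232, 181, 19.2, 87.6 and 137 CPM in Sirt2-/- (log2 fold change 2.25, SE 0.50, edgeR adjusted p = 0.0407). In all of these, 4 Sirt2-/- mice lay above every Control mouse and replicate 13 lay within the Control range. The isomerase Pdia4 and the Hspa5-associated Sdf2l1 rose by log2 fold changes of 1.13 and 1.80 (edgeR adjusted p = 0.0396 and 0.0407). Manf and Calr, chosen after their values were seen, did not pass the test (log2 fold changes 1.33 and 0.71, edgeR adjusted p = 0.0584 and 0.0998).

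The mean level of the ER list was -0.52, -0.27, -0.46, -0.23 and -0.48 in Control and 0.53, 0.53, -0.42, 0.01 and 0.38 in Sirt2-/-. Without replicates 14 and 15 the median of the list was 0.62, and Hspa5, Hyou1, Pdia4, Sdf2l1 and Creld2 had log2 fold changes of 1.15, 1.60, 1.19, 1.80 and 2.38, with edgeR adjusted p of 0.268, 0.256, 0.231, 0.256 and 0.256. The next called genes stood on no list and were chosen after their values were seen. Mogs, the glucosidase that trims N-glycans first, had 29.5, 26.1, 23.8, 27.3 and 28.2 CPM in Control and 41, 42.3, 35.2, 55.1 and 57.4 CPM in Sirt2-/-, with no overlap (log2 fold change 0.78, SE 0.14, edgeR adjusted p = 0.0219). Atf6b, a relative of the stress sensor Atf6, Wfs1, an ER membrane protein, and Lepre1, a collagen prolyl hydroxylase, had log2 fold changes of 1.13, 1.08 and 1.02 (edgeR adjusted p = 0.034, 0.0407 and 0.0352). Alg12, a mannosyltransferase of N-glycan assembly, Dhdds, which makes dolichol, and Preb, which activates the vesicle coat protein Sar1, had log2 fold changes of 1.23, 0.67 and 0.67 (edgeR adjusted p = 0.043, 0.0454 and 0.0472). Preb shares 21.8% of its exon bases with Abhd1 on the opposite strand.

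Promoters were searched for the ER stress element, CCAAT and CCACG with 9 bases between them, on both strands of the window from 250 bases before to 50 after each start (RefSeq, GRCm38.p6); this motif was added after the data were seen. Of the 10424 tested genes with a promoter of the same symbol, 19 (0.182%) held it, and 8 of the 24 ER list genes with a promoter (33.3%) did. Of the 46 called higher genes with a promoter it was found in 4 (8.7%), namely Hspa5, Creld2, Alg12 and Acnat2, and in 0 of the 50 called lower. The stretches below show each match with CCAAT and CCACG, or their reverse complements, in capitals, 5′ to 3′ along the gene.
Hspa5, chr2:34772005-34772063, forward strand: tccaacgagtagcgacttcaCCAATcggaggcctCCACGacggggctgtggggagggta
Creld2, chr15:88819500-88819558, forward strand: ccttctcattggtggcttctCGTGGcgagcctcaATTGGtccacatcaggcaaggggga
Acnat2, chr4:49408197-49408255, reverse strand: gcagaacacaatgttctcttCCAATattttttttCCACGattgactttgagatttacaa

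In Hspa5 the match begins 65 bases before the start and in Acnat2 84 bases before it, while in Creld2 it begins 126 bases before the start and reads on the other strand. Creld2 and Alg12 start in opposite directions from this same interval, so the match of Alg12 is the reverse complement of the one shown for Creld2, 220 bases before its own start. The shares of promoters with other motifs are given without a test. The E-box CACGTG stood in 11.4% of all promoters, in 10.9% of the called higher and in 16% of the called lower genes, Sc5d and Slc25a1 among the latter. The sterol element TCACCCCAC, in 0.787% of all promoters, and the peroxisome proliferator element (AGGTCA repeated after 1 base), in 0.048%, were found in 0 promoters of the called genes. The D-box, TTATGTAA or TTATGCAA, stood in 1.5% of all promoters, in 0% of the called higher and in 4% of the called lower genes (2 of 50, Gstt1 among them), and the ROR element (AGGTCA after an A- and T-rich stretch) in 0.201% of all and 0 of the called.

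Some hydroxylases of fatty acids were higher. The Cyp4a enzymes oxidise the end of the fatty acid chain, and their genes are known targets of the fatty acid receptor PPARα. Of 11 Cyp4a and Cyp4f genes 2 rose, 7 had a log2 fold change above 0 and 4 below it, and the median was 0.39. The mean levels of the list overlapped, from -0.745 to 0.003 in Control and from -0.164 to 0.66 in Sirt2-/-. Cyp4a14 had 296, 269, 423, 49.6 and 199 CPM in Control and 1371, 1699, 1285, 3116 and 2231 CPM in Sirt2-/-, 7.84-fold apart in the fit and without overlap (log2 fold change 2.97, SE 0.51, edgeR adjusted p = 0.0199). Cyp4a31 had 14.7, 21.3, 9.62, 8.61 and 21.1 CPM in Control and 76.4, 68.2, 23.7, 39.7 and 41.3 CPM in Sirt2-/-, also without overlap (log2 fold change 1.73, SE 0.36, edgeR adjusted p = 0.0352). Of the 100-base runs of Cyp4a31, 7.33% occur in another gene, mostly Cyp4a10, whose log2 fold change was 1.33 (edgeR adjusted p = 0.0787). In the fit without replicates 14 and 15, Cyp4a14 and Cyp4a31 had log2 fold changes of 2.55 and 1.90 (edgeR adjusted p = 0.182 and 0.196). The genes of β-oxidation and ketone synthesis showed no such difference as a list: 17 of 38 were above 0, the median was -0.04 and 0 were called. Cpt2, which returns acyl groups to CoA inside mitochondria, had 105 to 123 CPM in Control and 152 to 200 CPM in Sirt2-/- without overlap and did not pass the test (log2 fold change 0.55, edgeR adjusted p = 0.0603). Acnat2, which joins acyl groups to amino acids and was chosen after its values were seen, had 5.7, 4.84, 6.83, 19.4 and 6.72 CPM in Control and 16.5, 17.1, 24.7, 99.9 and 107 CPM in Sirt2-/- (log2 fold change 2.61, SE 0.51, edgeR adjusted p = 0.0338). Its log2 fold change was 1.16 without replicates 14 and 15 (edgeR adjusted p = 0.346), and 14.1% of its 100-base runs occur in another gene, mostly Acnat1.

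**Figure D2:**
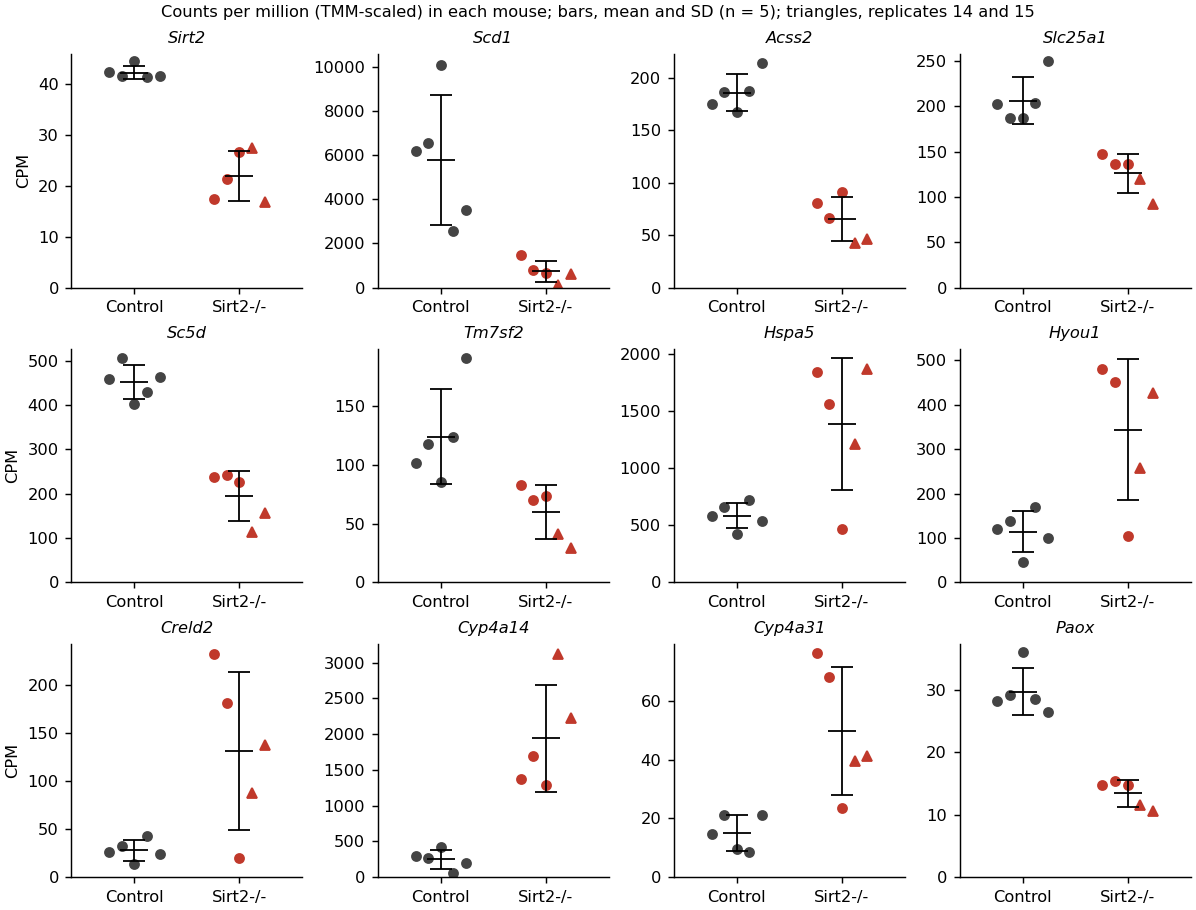
CPM of 12 genes in each of the 10 mice (y axis, from 0), with the mean and SD of each group of 5 as bars and Sirt2-/- replicates 14 and 15 as triangles. The 5 genes of lipid synthesis (Scd1, Acss2, Slc25a1, Sc5d and Tm7sf2), Sirt2 and Paox lie lower in every Sirt2-/- mouse than in any Control mouse, Cyp4a14 and Cyp4a31 lie higher, and in Hspa5, Hyou1 and Creld2 replicate 13 lies among the Control mice.

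Genes of drug and xenobiotic metabolism moved in both directions. Of 37 Cyp2 and Cyp3 genes 2 fell and 0 rose, with a median of -0.02. Cyp2j6 had 66.6, 72.5, 52.6, 67.1 and 79.9 CPM in Control and 37.4, 35.7, 45.2, 23.7 and 34.1 CPM in Sirt2-/- (edgeR adjusted p = 0.0199). Cyp2c54 had 317 to 440 CPM in Control and 113 to 279 CPM in Sirt2-/- (edgeR adjusted p = 0.0462), and 7.59% of its 100-base runs occur in another gene, mostly Cyp2c50. Of 29 glutathione transferases and targets of the oxidative stress factor Nrf2, the transferases Gstm6 and Gstt1 fell, with log2 fold changes of -1.14 and -0.90 and no overlap (edgeR adjusted p = 0.0333 and 0.0407). Srxn1, which restores oxidised peroxiredoxins, rose, from 22.8 to 41.7 CPM in Control to 41.5 to 97.3 CPM in Sirt2-/- (log2 fold change 1.01, edgeR adjusted p = 0.043). Ephx1, the microsomal epoxide hydrolase, was chosen after its values were seen and did not pass the test, although its groups did not overlap (log2 fold change 0.98, edgeR adjusted p = 0.0517). Without replicates 14 and 15 Gstm6 and Gstt1 had log2 fold changes of -1.03 and -0.93 and Srxn1 one of 0.52 (edgeR adjusted p = 0.268, 0.256 and 0.434).

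Of 24 glucuronosyl- and sulfotransferases 17 were below 0 (median -0.21), 1 rose and 1 fell. The median was -0.05 without replicates 14 and 15, whose mean levels of the list were -0.637 and -0.427, against -0.075 to 0.17 in replicates 11 to 13 and -0.085 to 0.272 in Control. Ugt1a9 had 105, 70.2, 93.5, 102 and 95.9 CPM in Control and 117, 125, 200, 255 and 250 CPM in Sirt2-/- (log2 fold change 1.02, SE 0.24, edgeR adjusted p = 0.0472). Its neighbour Ugt1a5 had 124, 94.4, 86.2, 44.1 and 145 CPM in Control and 20.5, 44.2, 12.4, 0.949 and 2.29 CPM in Sirt2-/-, and did not pass the test (log2 fold change -2.62, SE 0.70, edgeR adjusted p = 0.0726, and -1.94 without replicates 14 and 15). The pair share 1311 exon bases (59.9% and 59.5% of each), because the Ugt1a genes use common last exons, and how reads were split between them is not stated. Sult1b1, a sulfotransferase of phenols and thyroid hormone, fell from 23.1 to 36.1 CPM in Control to 11.2 to 21.8 CPM in Sirt2-/- (log2 fold change -0.97, SE 0.22, edgeR adjusted p = 0.0407).

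The next lists of central metabolism held 1 called gene each. Pdk1, a kinase that switches off pyruvate dehydrogenase, was the only one of 31 genes of the TCA cycle and pyruvate dehydrogenase to pass the test. It had 118, 95.1, 101, 61.6 and 83.1 CPM in Control and 53.9, 38.2, 46.5, 26.1 and 27.8 CPM in Sirt2-/- (log2 fold change -1.25, SE 0.24, edgeR adjusted p = 0.0307). Haao, an enzyme of the kynurenine path from tryptophan to NAD, was the only one of 41 genes of the urea cycle and amino acid breakdown, with 391 to 480 CPM in Control and 237 to 336 CPM in Sirt2-/- (log2 fold change -0.58, edgeR adjusted p = 0.0462). The medians of these lists were -0.04 and -0.07, near that of all genes. Sucnr1, the receptor for extracellular succinate, was among the 12 genes with the largest log2 fold changes downward, with 27.1, 30.1, 17.3, 21.5 and 33.5 CPM in Control and 6.13, 6.15, 7.02, 3.6 and 2.01 CPM in Sirt2-/- (log2 fold change -2.38, SE 0.42, edgeR adjusted p = 0.0219).

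The next genes stood on no list and were chosen after their values were seen. Paox, which oxidises acetylated polyamines, had 28.3, 29.2, 36.2, 28.5 and 26.5 CPM in Control and 14.8, 15.4, 14.8, 11.5 and 10.6 CPM in Sirt2-/- (log2 fold change -1.15, SE 0.18, edgeR adjusted p = 0.0145). Control replicate 3 stood above the other Control mice, and 22.7% of its 100-base runs occur in another gene, mostly Gm19680. Gamt, the last enzyme of creatine synthesis, had 189, 167, 194, 149 and 163 CPM in Control and 79.8, 63.3, 78.8, 38.2 and 29.7 CPM in Sirt2-/- (log2 fold change -1.57, SE 0.32, edgeR adjusted p = 0.034). Slc38a3, a glutamine transporter of hepatocytes, had 1597 to 2951 CPM in Control and 673 to 1373 CPM in Sirt2-/- (log2 fold change -1.06, edgeR adjusted p = 0.0335). Aldh1l1, a folate dehydrogenase, Hnmt, which inactivates histamine, and Pts, an enzyme of tetrahydrobiopterin synthesis, had log2 fold changes of -0.68, -1.04 and -0.60 without overlap (edgeR adjusted p = 0.0407, 0.0407 and 0.0405). When replicates 14 and 15 were left out, the log2 fold changes were -0.98 for Paox, -1.22 for Gamt, -0.79 for Slc38a3, -0.99 for Pdk1 and -2.01 for Sucnr1, with edgeR adjusted p from 0.182 to 0.268.

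The 12 largest log2 fold changes upward were taken from called genes with a symbol that averaged 1 FPKM or more and did not overlap between the groups, and besides Cyp4a14 and Cyp4a31 they were mostly in genes of low level. Baiap2, an adaptor between membrane and actin, had 10.5, 7.47, 5.25, 13.2 and 11.5 CPM in Control and 20.2, 28.2, 16.7, 47.3 and 39 CPM in Sirt2-/- (log2 fold change 1.66, SE 0.29, edgeR adjusted p = 0.0199). Slc45a3, a solute carrier, had 8.31 to 15.3 CPM in Control and 21.5 to 42.4 CPM in Sirt2-/- (log2 fold change 1.54, edgeR adjusted p = 0.0307). Insc, an adaptor of spindle orientation, had 6.37 to 14.4 and 15.5 to 31.3 CPM (log2 fold change 1.19, edgeR adjusted p = 0.0307). Others were Lrfn3, Hist2h2be, Spaca6, Ctcflos, Praf2 and Armcx3, with log2 fold changes from 2.03 for Lrfn3 to 1.36 for Armcx3. Those of Hist2h2be and Praf2 without replicates 14 and 15 were 1.22 and 0.76 (edgeR adjusted p = 0.449 and 0.49). Praf2 shares 35.9% of its exon bases with Gm45208. Hist1h1c, a linker histone, rose by a log2 fold change of 3.05 and was chosen after its values were seen. It had 20.8, 22.6, 14.8, 40.2 and 46.2 CPM in Control and 44.7, 69.4, 84.5, 751 and 249 CPM in Sirt2-/- (SE 0.62, edgeR adjusted p = 0.0352). Replicates 14 and 15 were the highest by far, and without them its log2 fold change was 1.20 (edgeR adjusted p = 0.354), or 1.95 without replicate 14 alone (edgeR adjusted p = 0.0812).

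The 12 genes with the largest log2 fold changes downward had varied roles beside those of Scd1 and Sucnr1. Raet1e, a ligand of the natural killer receptor NKG2D, had 4.49, 5.12, 7.77, 0.826 and 0.828 CPM in Control and 0.159, 0, 0.273, 0.15 and 0.143 CPM in Sirt2-/- (log2 fold change -4.69, SE 0.86, edgeR adjusted p = 0.0236). Control replicates 4 and 5 were low as well, and 26.8% of its 100-base runs occur in another gene, mostly Raet1d, which fell as well (log2 fold change -3.79, edgeR adjusted p = 0.0357, and -3.16 without replicates 14 and 15) and was chosen after its values were seen. Tff3, a secreted trefoil peptide, had 1.43, 0.871, 2.49, 5.58 and 7.25 CPM in Control and 0.477, 0.385, 0.383, 0.0749 and 0.0956 CPM in Sirt2-/- (log2 fold change -3.62, SE 0.66, edgeR adjusted p = 0.0234). Scara5, a ferritin receptor, had 10.2 to 41.9 CPM in Control and 1.39 to 7.41 CPM in Sirt2-/- (log2 fold change -2.68, edgeR adjusted p = 0.0462).

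Atp6v0d2, a subunit of the vacuolar proton pump, Hcn3, an ion channel, Tifa, an adaptor of NF-κB signalling, and Eif4e3, a cap-binding protein, had log2 fold changes of -3.40, -2.59, -1.95 and -1.85 (edgeR adjusted p = 0.0236, 0.0352, 0.0462 and 0.0199). Atp6v0d2 had 3.95, 4.48, 15, 3.02 and 4.23 CPM in Control and 0.375 to 1.14 CPM in Sirt2-/-. It was the 1 called gene of 16 tested female-type genes (median -0.06, and -0.67 without Sirt2-/- replicates 14 and 15). Tifa had 13.4, 10.8, 67.1, 18 and 15.6 CPM in Control and 3.85 to 8.92 CPM in Sirt2-/-. Control replicate 3 was far the highest in both, and without it their log2 fold changes were -2.75 and -1.16 (edgeR adjusted p = 0.0647 and 0.143). Eif4e3 had 12.2, 8.75, 7.97, 8.53 and 8.71 CPM in Control and 3.63, 2.64, 1.67, 2.22 and 2.63 CPM in Sirt2-/-, so it was more even among the mice than the others. Hcn3 shares 17.1% of its exon bases with Pklr on the opposite strand, and how the counts treat strand is not stated. The transcript 1810008I18Rik had 44.5, 54, 71.5, 44.3 and 43.3 CPM in Control and 20.5, 15.4, 17.2, 7.44 and 9.92 CPM in Sirt2-/- (log2 fold change -1.87, SE 0.27, edgeR adjusted p = 0.0145). Gm3839, with a log2 fold change of -1.97, shares 40.6% of its 100-base runs with other genes, mostly Gapdh, so its own level is uncertain. Ropn1l, a protein known from sperm flagella and cilia, was outside the 12 and had 9.48, 7.74, 10.5, 10.7 and 11.2 CPM in Control and 4.25, 3.18, 4.51, 4.77 and 2.84 CPM in Sirt2-/- (log2 fold change -1.34, SE 0.21, edgeR adjusted p = 0.015). Rgs16, a regulator of G protein signalling known to follow the clock and feeding, and chosen after its values were seen, had 159, 97.2, 178, 14.1 and 25.5 CPM in Control and 14.5, 3.26, 8.39, 3.42 and 2.37 CPM in Sirt2-/- (log2 fold change -3.89, SE 0.78, edgeR adjusted p = 0.034).

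Of the 53 lists drawn up, not all of which are described here, 42 held no called gene. Most of the called genes, 116 of 139, stood on none. Nuclear genes of respiratory complex I were below 0 in 34 of 37 (median -0.20), those of complexes II to V in 38 of 40 (median -0.28), the mitochondrially encoded ones in 13 of 13 (median -0.15) and the cytosolic ribosomal proteins in 75 of 78 (median -0.28). With library size only the medians were -0.07, -0.14, -0.01 and -0.15, beside 0.16 over all genes tested. They were -0.20, -0.26, -0.02 and -0.30 without replicates 14 and 15. The mitochondrially encoded list had a mean level of -0.827 in replicate 14, while replicates 11 to 13, at 0.025, 0.113 and 0.087, lay within the Control range of -0.131 to 0.273. In replicate 14 complex I had a mean level of 0.08, within the Control range of -0.073 to 0.193 (other Sirt2-/- mice -0.497 to -0.086). Complexes II to V were at 0.009 there (Control -0.015 to 0.212, other Sirt2-/- mice -0.541 to -0.126). Ribosomal proteins stood at 0.232 in replicate 14 (Control 0.002 to 0.227), against -0.512 to -0.033 in the other Sirt2-/- mice. Heat shock proteins were above 0 in 12 of 18 (median 0.52), with Hsp90aa1 at 88.2 to 266 CPM in Control and 173 to 542 CPM in Sirt2-/- (log2 fold change 1.34, edgeR adjusted p = 0.0769). Tubulins, of interest because α-tubulin is a Sirt2 substrate, with Hdac6 and Atat1, which remove and add the acetyl group, were listed without Sirt2 itself and were above 0 in 11 of 12 (median 0.42). Of these, Tuba8 had 1.15, 1.86, 1.06, 5.74 and 3.6 CPM in Control and 3.88, 6.21, 7.35, 35.6 and 27.9 CPM in Sirt2-/- (log2 fold change 2.59, edgeR adjusted p = 0.0533, and 1.12 without replicates 14 and 15). Without these mice the median of the tubulin list was 0.23, and with the clock score as a covariate 0.16. Its mean level was 0.657 and 0.674 in them, -0.141, -0.052 and -0.835 in replicates 11 to 13 and -0.861 to -0.314 in Control. Genes of NAD supply (8 of 16 above 0, median 0.00), glycolysis (14 of 28, median 0.02) and gluconeogenesis (9 of 20, median -0.16) showed no common direction. Kupffer cell markers were above 0 in 13 of 13 (median 0.39) and endothelial markers in 11 of 11 (median 0.32), with Cd163 at 1.13 and Lyve1 at 1.00 on the log2 scale (edgeR adjusted p = 0.19 and 0.346), while hepatocyte markers were above 0 in 5 of 10 (median 0.00). No gene of the lists in this paragraph was called.

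**Figure D3:**
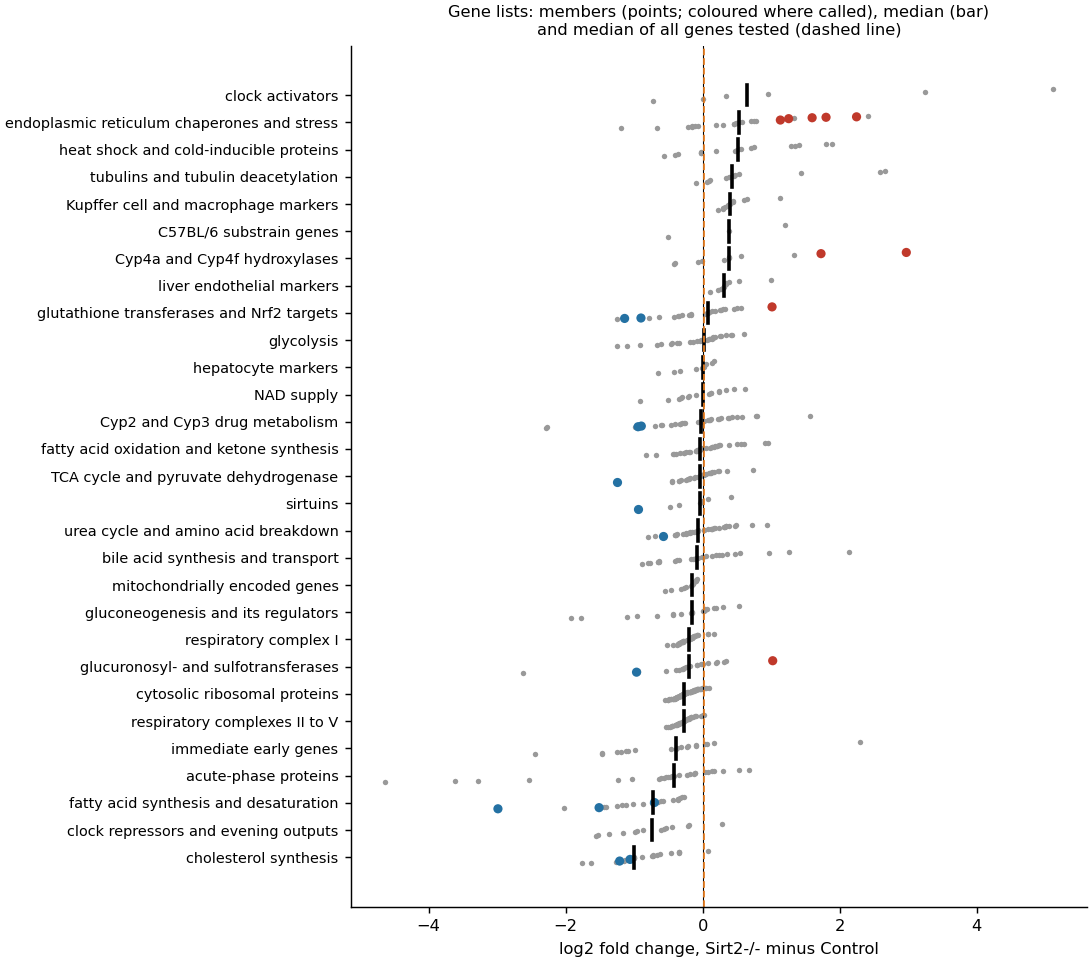
Log2 fold change between Sirt2-/- and Control (x axis) of each tested gene of 29 lists (grey points, or red and blue where called higher or lower), with the median of the list as a black bar and that of all genes tested (0.02) as a dashed line. Cholesterol and fatty acid synthesis have medians of -0.997 and -0.72, and the chaperones of the endoplasmic reticulum one of 0.53.

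The clock genes themselves were not called. Evening genes and repressors of the clock were below 0 in 13 of 14 (median -0.74) and activators above 0 in 5 of 6 (median 0.64), but the difference lay mostly in 2 mice. Dbp, an output gene that peaks toward the evening, had 99, 78.2, 89.6, 71.6 and 96.2 CPM in Control and 37.9, 45.5, 66.8, 0.325 and 0.359 CPM in Sirt2-/- (log2 fold change -1.53, SE 0.96, edgeR adjusted p = 0.488); it was chosen after its values were seen. Arntl, the clock activator BMAL1, had 0.437, 0.851, 0.123, 3.28 and 0.537 CPM in Control and 2.02, 5.13, 1.48, 15.5 and 25.9 CPM in Sirt2-/- (log2 fold change 3.25, SE 0.89, edgeR adjusted p = 0.0769). Without replicates 14 and 15 the log2 fold changes of Dbp and Arntl were -0.79 and 1.45 (edgeR adjusted p = 0.848 and 0.714). Replicates 14 and 15 both lay farther from Control than replicates 11 to 13 in 39 of the 60 called higher and 40 of the 79 called lower genes. Replicate 13 lay nearest to Control in 38 of the 60 called higher genes and in 28 of the 79 called lower ones, and replicate 11 in 15 and 32. With the clock score as a covariate 0 genes were called (lowest edgeR adjusted p 0.159), with median log2 fold changes of 0.68 and -1.06 over the 60 and 79 genes. Since the score differs between the groups, its part and that of the genotype cannot be told apart in these mice.

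**Figure D4:**
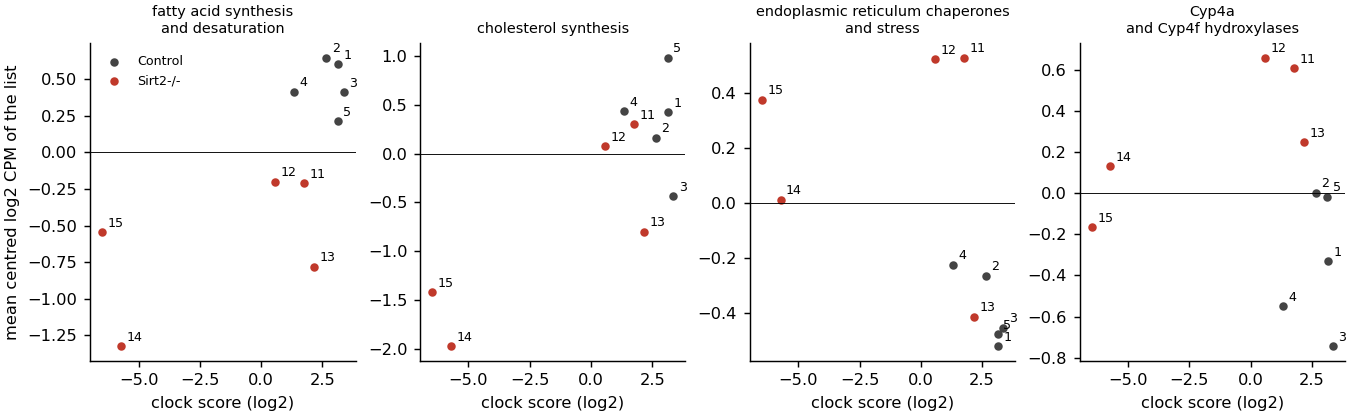
Mean centred log2 CPM of 4 lists (y axes) against the clock score (x axes, log2) in the 5 Control and 5 Sirt2-/- mice, numbered by replicate. Replicates 14 and 15 have clock scores of -5.72 and -6.48 and the lowest levels of cholesterol synthesis, while for the chaperones of the endoplasmic reticulum replicates 11 and 12, with scores of 1.76 and 0.58, lie highest.

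The genotype was then compared in the 10 cold-exposed mice, which share no library with the mice above. Between Sirt2-/-/CE and CE, 2 genes (0.0128%) were called, Sirt2 and Atp11a, and 951 (6.09%) had an unadjusted p under 0.05. Sirt2 had a log2 fold change of -1.11 there (SE 0.15, edgeR adjusted p = 0.0043), close to the -0.94 of unexposed liver. Atp11a, a phospholipid flippase, fell by 2.10 on the log2 scale in the cold (edgeR adjusted p = 0.0163). In unexposed liver it had 13.7, 16, 15.4, 19.3 and 11.5 CPM in Control and 7.45, 6.64, 5.14, 5.2 and 9.25 CPM in Sirt2-/-, without overlap, and did not pass the test (log2 fold change -1.17, SE 0.31, edgeR adjusted p = 0.072). Of the 139 genes called in unexposed liver, 87 had the same sign in the cold, 45 of the 60 higher and 42 of the 79 lower ones, and the medians there were 0.12 and -0.04. Of the 139, 13 had the same sign with an unadjusted p under 0.05 in the cold and 5 the opposite sign. Sirt2-/-/CE replicate 20 stood apart from the other 9 cold-exposed mice, with a mean level of male-type genes of -3.373 (the others -0.513 to 1.044) and of female-type genes of 3.201 (the others -1.231 to 0.816), and without it 1 gene was called.

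Scd1 had a log2 fold change of -0.11 in the cold (SE 0.54), Acss2 -0.28 (SE 0.28) and Sc5d -0.07 (SE 0.23), and the medians of fatty acid and cholesterol synthesis were 0.11 and -0.21. The ER list had a median of -0.02, with Hspa5 at 0.27 (SE 0.27) and Creld2 at 0.62 (SE 0.48). Cyp4a14 had a log2 fold change of 1.33 in the cold (SE 0.48, edgeR adjusted p = 0.617) and Scara5 one of -3.33 (SE 0.65, edgeR adjusted p = 0.241). Paox, Sucnr1 and Eif4e3, at -1.15, -2.38 and -1.85 in unexposed liver, had log2 fold changes of 0.03, 0.01 and 0.04 there. The respiratory and ribosomal lists had medians above 0 there, of 0.24 for complex I, 0.24 for complexes II to V and 0.28 for ribosomal proteins, but these rested on 1 mouse. Without Sirt2-/-/CE replicate 16 they were 0.04, 0.05 and -0.02, and the mean level of complex I was 0.857 in that mouse, 0.464 in replicate 20, -0.253 to -0.037 in the other 3 and -0.233 to 0.158 in CE. Markers of Kupffer and endothelial cells had medians of 0.79 and 1.20 in the cold. The mean level of the Kupffer list was -1.244 to 0.63 in CE and 0.142 to 0.777 in Sirt2-/-/CE, while that of the endothelial list did not overlap (-1.901 to 0.17 and 0.287 to 0.963). The part of these cell types in the results was not tested. The difference between these genotype effects was tested as an interaction. By edgeR 0 genes (0%) were called, with 1303 (8.34%) at an unadjusted p under 0.05. DESeq2 called 41 genes and limma voom with sample quality weights 0. Of the 139 genes, 125 had an unadjusted interaction p under 0.05, and the lowest adjusted p over all genes was 0.208, so no gene was shown by edgeR to differ in its genotype effect between unexposed and cold-exposed mice. The 139 genes were chosen for their difference in unexposed liver, which enters the interaction, so this count is a description.

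**Figure D5:**
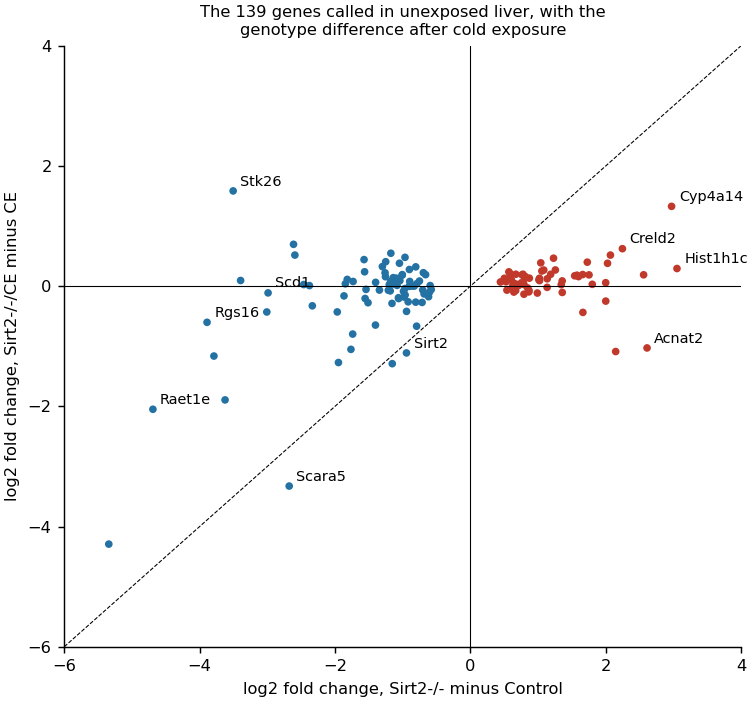
Log2 fold change of the 139 called genes between Sirt2-/- and Control (x axis) and between Sirt2-/-/CE and CE (y axis), with blue and red for genes called lower and higher in unexposed liver and a dashed line where both are equal. Sirt2 (-0.94 and -1.11) and Scara5 (-2.68 and -3.33) lie near the line, whereas most genes, Scd1 among them (-2.99 and -0.11), lie near 0 on the y axis.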

How the data were processed

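Liver RNA was enriched for messenger RNA on oligo(dT) beads and sequenced on an Illumina instrument, per the labels and the methods of the study. The authors deposited a table of 45306 genes (1967 of them predicted) with whole-number counts per gene and mouse, not normalized, and FPKM values scaled to gene length and depth. The submitters' processing notes name the mm10 build, while aligner, counter and treatment of strand are not given in the sources used here. The FPKM values served for the filter on named genes and as an alternative, and columns left unused numbered 0.

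Counts of all 20 libraries were fitted once in edgeR 4.0.16 (R 4.3.3) with the group as the only term, TMM scaling and filterByExpr (minimum count 10, minimum total 15), which kept at least 99.94% of the counts of a library. The quasi-likelihood test was two-sided, with Benjamini-Hochberg adjustment over the 15616 genes tested, and a gene was called at an adjusted p under 0.05. P-values measure the spread between these mice. The scripts were tested on simulated data. DESeq2 1.42.0 and limma 3.58.1 (voom with sample quality weights) were alternatives. Further ones were other scalings and filters, a fit of only the groups compared, a covariate for the clock score and leaving out mice. No pair of the 190 library pairs was alike within counting noise (lowest median chi-square 4.43, against 0.455 from noise).

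The comparison, lists and alternatives were chosen with earlier results of these data known. Genes were named by a rule: Sirt2, called members of lists, the 3 list members with the lowest p and the 2 with the highest CPM, the 12 called genes with the largest change each way among those with a symbol (predicted genes have none) that averaged 1 FPKM or more and did not overlap, and genes called in the cold. Others are marked as chosen after their values were seen. Some genes that the rule named are not reported here. Exons came from GENCODE vM21, promoters from RefSeq (GRCm38.p6), matched by symbol.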

Additional observations from a re-analysis of the deposited data

Results flagged for a closer look

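In 25 of 246 sets of 5 mice that were checked, 1 mouse lay far from the others of its group, by the ratio of its gap to the whole range (critical value 0.710). Chance flags about 1 in 20 groups, and the sets are not independent. Control replicate 3 was the distant mouse in 10 of the 25. In CPM it was high in Saa2 (0.987), Lcn2 (0.976), Atp6v0d2 (0.878), Tifa (0.871), Hnmt (0.81), Haao (0.735) and Paox (0.722) and low in Wfs1 (0.798), and it was high in the mean level of acute-phase proteins (0.735) and apart in that of Cyp2 and Cyp3 genes (0.859). Saa2 and Lcn2 had 793 and 291 CPM there, so their group means in Control rest on this mouse.

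Control replicate 4 was high in Chka (0.904, at 13.9 CPM), Acnat2 (0.863), Arntl (0.77) and Hsp90aa1 (0.767), each of which was higher in Sirt2-/- than in the other Control mice. Control replicate 5 stood apart in Slc25a1 (0.733), Cd163 (0.732) and the mean level of glycolysis (0.947), and Control replicate 1 in Eif4e3 (0.814, at 12.2 CPM). In the Sirt2-/- group, replicate 13 was low in Manf (0.769, at 45.5 CPM) and high in Lpcat3 (0.71), Irs2 (0.715) and the mean level of bile acid genes (0.755). Replicate 14 was high in Hist1h1c (0.711, at 751 CPM), and replicate 11 in Atp6v0d2 (0.801) and in the mean level of Cyp2 and Cyp3 genes (0.76). The part of these mice in the results was not tested beyond leaving each one out.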

How the results depend on the processing

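The count of 139 genes between Sirt2-/- and Control was 607 with DESeq2 and 906 with limma voom with sample quality weights. It was 209 with at least 10 counts in every library, 419 with library size only and 35 with no filter. In a fit of only the groups compared it was 29 (21 of them shared with the 139), and with an absolute log2 fold change of at least 1 it was 84. It was 0 with the clock score as a covariate and 0 without Sirt2-/- replicates 14 and 15, a setting added after seeing the data. Leaving out 1 mouse gave 5 to 387 genes: 13, 5, 17, 213 and 50 without Control replicates 1 to 5, and 24, 387, 5 and 11 without Sirt2-/- replicates 12 to 15. Genes without overlap numbered 645 to 1212 with 1 mouse left out, 1039 without Control replicate 4 and 875, 1212 and 931 without Sirt2-/- replicates 11, 13 and 14. Sirt2 had log2 fold changes of -1.04 to -0.87 with 1 mouse left out; it was -0.85 with the clock score as a covariate (edgeR adjusted p = 0.159) and -0.95 without replicates 14 and 15 (edgeR adjusted p = 0.126), in a range of adjusted p from 2.6e-06 to 0.159 over 20 alternatives. Fewer mice enter the fit without replicates 14 and 15, and the cause of the change was not tested for any setting. Of 65 called genes named in the text besides Sirt2, 65 stayed called with DESeq2, 60 with voom, 55 with upper-quartile scaling, 29 with no filter and 17 in the fit of the groups compared, and 0 reversed under any setting. Lcn2, which had not been called, had a log2 fold change of 0.05 without Control replicate 3, in a range from -4.01. Of 29 list medians, 2 moved by more than the spread between mice without replicates 14 and 15, those of Cyp4a and Cyp4f (to 0.81) and of glycolysis (to -0.13).

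Between Sirt2-/-/CE and CE, 31 genes were called with DESeq2, 1 with library size only, 0 in the fit of only these groups and 1 to 4 with 1 mouse left out (4 without CE replicate 6; 1 without CE replicate 8 or 9 or Sirt2-/-/CE replicate 19 or 20). The interaction count of 0 was 41 with DESeq2 and 0 to 2 with 1 mouse left out, 2 without Control replicate 4. No paired analysis was possible because the labels give no litter or batch that would pair mice of the groups compared. Depth did not overlap between the groups, the Control libraries being deeper.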

Other observations

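Plasma proteins and membrane transporters had values below 0 without a call. Of 34 genes of complement and coagulation, secreted by hepatocytes, 30 were below 0 in Sirt2-/- (median -0.26) and 0 were called; Kng1, a kininogen, differed by -0.79 on the log2 scale (edgeR adjusted p = 0.0729). The median was -0.24 between Sirt2-/-/CE and CE and -0.10 without replicates 14 and 15. Of 20 organic anion and drug transporters 15 were below 0 (median -0.29, and -0.09 without replicates 14 and 15). Their mean level was -0.82 and -0.489 in replicates 14 and 15, -0.012, 0.027 and 0.141 in replicates 11 to 13 and -0.006 to 0.214 in Control. Slc22a7, the liver's organic anion transporter 2, had a value of -2.02 on the log2 scale (edgeR adjusted p = 0.0811). Cyp39a1, an oxysterol hydroxylase of bile acid synthesis, had 12.9, 7.72, 21.2, 30.8 and 17.8 CPM in Control and 27.5, 24.7, 55.2, 140 and 147 CPM in Sirt2-/- (log2 fold change 2.13, edgeR adjusted p = 0.0638). Its log2 fold change was 0.99 without replicates 14 and 15 (edgeR adjusted p = 0.645). The list of 28 bile acid genes had a median of -0.08.

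Some genes split the Control group. Irs2, the insulin receptor substrate, had 32.9, 38.4, 50.5, 3.41 and 2.62 CPM in Control and 6.04, 3.44, 14.9, 3.07 and 6.43 CPM in Sirt2-/-. Dusp1, an early stress gene chosen after its values were seen, had 72.6, 71.1, 135, 14.6 and 9.78 CPM in Control and 24, 23.5, 44.5, 8.84 and 8.34 CPM in Sirt2-/-. Control replicates 4 and 5 were low in both. Wdfy1, a gene known to differ between C57BL/6 substrains, had 6.42, 5.25, 4.91, 18.1 and 13.8 CPM in Control and 21.9, 22.9, 28.3, 17.5 and 20.6 CPM in Sirt2-/- (log2 fold change 1.20, edgeR adjusted p = 0.0584), so Control replicates 4 and 5 lay nearer to the Sirt2-/- mice than replicates 1 to 3. Of the other substrain genes, Nnt had 46.7 to 113 CPM in Control and 96 to 143 CPM in Sirt2-/-, and Entpd4, which shares 100% of its 100-base runs with Entpd4b, had 12.3 to 26 and 13.7 to 15 CPM. Which substrain the mice belong to is not stated, and its part in the results was not tested.

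Of the called genes, 8 (5.76%) lay on chromosome 7, which holds Sirt2 and 7.15% of the genes tested. One was Actn4, which starts at 28893248 and ends at 28962340 (GRCm38), near Sirt2; it was chosen after its values were seen. Actn4, an actin crosslinker, had 116, 119, 115, 113 and 104 CPM in Control and 152, 162, 127, 145 and 185 CPM in Sirt2-/-, with no overlap (log2 fold change 0.44, SE 0.10, edgeR adjusted p = 0.043).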
